A study of Mus musculus with 26 samples.

Results

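The small ribosomal subunit carries the mRNA and the decoding site of the ribosome, and its proteins were followed here one by one through the 3 deposited tables of mouse caudate putamen. A transcript was taken as a member when its gene symbol was Rpsa or Fau, or Rps followed by a digit. Symbols of the S6 kinases (Rps6k), symbols of pseudogenes and Rps19bp1 were left out. This gave 33 transcripts of 32 genes in each table, of 8576 transcripts of 8553 genes in both transgenic tables and of 9561 transcripts of 9535 genes in the LRRK2 KO table. Rps4x was listed as 2 transcripts, the abundant uc009tyl.1 and the scarcer uc009etk.1. Rps23 was not listed. The authors discarded transcripts with few reads, and the files do not say whether that removed it.

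The study compared ribosome footprints, which are mRNA fragments that ribosomes shield from RNase I, with RNA-Seq of rRNA-depleted total RNA from the same tissue. GS LRRK2 TG mice carried a G2019S LRRK2 transgene and GS/DA LRRK2 TG mice a G2019S/D1994A transgene that lacks kinase activity. Both came from high copy number Tet-off lines driven by CaMKII-tTA, a driver of forebrain excitatory and striatal neurons, on doxycycline chow until weaning, and were set against non-TG control mice. LRRK2 KO mice, in which the gene is knocked out, were set against WT mice. All were C57BL/6 mice of 3 months by the labels, and each library came from a pool of mice of mixed sex. The labels list 3 footprinting and 3 RNA-Seq libraries for non-TG control, 2 and 2 for each transgenic line, and 3 and 2 for WT and for LRRK2 KO. The 2 ventral midbrain libraries, 1 of WT and 1 of LRRK2 KO, are in none of the tables. Footprinting means of WT and of LRRK2 KO each resolved into 2 libraries, fewer than the 3 labelled. Means of non-TG control beside GS/DA LRRK2 TG also resolved into 2 libraries in each assay.

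Each table gives 1 mean of DESeq-normalized reads in the CDS per group and assay, with no SD. The reads of 2 single libraries behind a mean were recovered for every column except those of non-TG control beside GS LRRK2 TG, and all 33 members were resolved in each recovered library. Over the transcripts resolved in each, 98.65% to 99.9% of those listed, these libraries held 2865921 to 19670417 footprints and 3145925 to 14500251 RNA-Seq reads. Shares of a library given below are shares of these resolved reads, and unresolved transcripts are not counted in them. Members took 13588 to 117953 of the footprints and 28222 to 274556 of the RNA-Seq reads. Counting error is small for the sum over members, but not for the scarce ones among them such as Rps27l. TE is the footprinting level divided by the RNA-Seq level, and changes and TE differences are log2 values, genotype minus control. Values in single libraries are normalized reads.

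Lrrk2 itself was read first as a check of the labels. Its footprints were 102 and 149.7 in the LRRK2 KO libraries and 400.3 and 690.1 in the WT libraries, so the groups did not overlap. Its RNA-Seq reads were 423.1 and 270 in LRRK2 KO and 1278 and 733.3 in WT, so some Lrrk2 reads remained in LRRK2 KO. In the GS/DA LRRK2 TG table, footprints were 7267 and 4766 in the transgenic libraries and 1445 and 1224 in the controls. The GS LRRK2 TG libraries held 3320 and 7052 Lrrk2 footprints beside a control mean of 2524. RNA-Seq did not separate the transgenic groups at Lrrk2, with 403.7 and 5038 in GS/DA LRRK2 TG and 5233 and 560.2 in its controls, and 3550 and 214.2 in GS LRRK2 TG beside a control mean of 2105.

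The tissue label was checked with markers. Of 20 symbols for striatal neuron markers, 17 were listed in each table, with Ppp1r1b the most abundant, and Drd1, Meis2 and Penk1 were not listed under those symbols. Summed striatal marker footprints were 228031 in non-TG control and 190029 in GS/DA LRRK2 TG (log2 change -0.26), and 50079 in WT and 52172 in LRRK2 KO (0.06). Cortical neuron markers, the mark of neighbouring tissue in a dissection, were listed for 6 of 12 symbols in the transgenic tables and 10 of 12 in the LRRK2 KO table, with Nrgn the most abundant. In bulk tissue, fewer cells of a type and less RNA per cell cannot be told apart.

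As background, the 40S subunit has a head, a body and a platform, and each of its proteins is present in a single copy. Proteins of the head and of the body line the channel through which mRNA enters and the cleft where codons are read. Ribosomal protein mRNAs are short, abundant and begin with a pyrimidine tract (the TOP motif), through which mTOR sets how much of the mRNA is engaged by ribosomes. In neurons these mRNAs are found in the cell body and also in axons and dendrites. LRRK2 has been reported to phosphorylate Rps15 (uS19) and Rps27 (eS27).

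The 32 genes share features that the choice of symbols did not use. They lie on 13 chromosomes, 9 of them on chromosome 7. Their CDS runs from 168 bases in Rps29 to 885 bases in Rpsa, with a median of 436.5 against 1422 over all genes of the transgenic tables, and has 3 to 7 coding exons. GC content of the CDS spans 45.5% (Rps24) to 59.5% (Rps29) with a median of 53.1%, near the 52.8% of all genes. Predicted folding of the 5′UTR was weak, with a median of -23.84 kcal/mol against -91.15 over all, and ranged from -121.65 kcal/mol in Fau to 0 in Rps15a and Rps28.

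Copies of these genes limit which reads can be placed. Ribosomal protein mRNAs have many processed pseudogenes, and a read that matches several of them equally may have been dropped or shared out. Among all windows of 28 bases along each CDS, the share found nowhere else in the mouse genome had a median of 3.88% over the 32 genes. It was 0% for 11 genes, among them Rpsa, Rps6, Rps27, Rps27a, Rps12, Rps29 and Fau. A Fau window had at most 1 copy elsewhere, while windows of Rps12 had up to 24, of Rps6 up to 22 and of Rpsa up to 20. Rps3 had a share of 77.8%, and most members were far below it. Rps2, whose windows had up to 56 copies, and the others can be compared between groups of a table more safely than between genes.

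Per length, members were among the most abundant transcripts of the striatum and had a low TE. Their median log2 footprints per kb was 12.42 in the non-TG controls of the GS/DA LRRK2 TG table, above that of 93.6% of all genes. Their median log2 RNA-Seq reads per kb was 13.81, above 98.4% of all genes, and their median log2 TE was -1.20, above only 7.88% of all transcripts. In WT, the same medians were 10.38 (above 93.6%), 11.60 (above 97.0%) and -1.31 (above 18.8%).

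Rps29 (uS14), a small zinc-binding protein of the head, had the highest level of footprints per kb in every group of every table, followed by Rps21 and Fau. In the non-TG controls its log2 footprints per kb was 14.18, against 13.76 for Rps21 and 13.21 for Fau. Rps27l, a paralog of Rps27 induced by p53, had the lowest, 10.53, with Rps12 (11.27) and Rps2 (11.81) next. In WT the order of these 6 was the same, from 11.78 for Rps29 to 7.85 for Rps27l.

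Rps12 is a head protein found in eukaryotes. Its log2 RNA-Seq reads per kb was 13.80 in the non-TG controls, rank 17 of 32, and 11.05 in WT, rank 30 of 32. Its log2 TE of -2.53 was the lowest of all members there and in each group of the transgenic tables. At the other end, Rps27l had a log2 TE of 0.82 and the second Rps4x transcript 0.84. In WT the lowest TE was that of Rps2 (-2.24), with Rps12 at -2.07. Rps2 (uS5) lines the mRNA entry channel, and its footprints differed widely between the libraries of the LRRK2 KO table, with 987.4 and 142.6 in WT and 925.7 and 163.7 in LRRK2 KO.

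The LRRK2 substrates Rps15 and Rps27 differed from each other in level. Rps15, a head protein close to the decoding site, had a log2 footprints per kb of 12.99 in the non-TG controls of the GS/DA LRRK2 TG table, against 12.51 for Rps27, a protein of the body and platform. Their log2 TE was -1.48 and -2.06. Rps6, the target of S6 kinase, had a log2 footprints per kb of 12.53 and a log2 TE of -1.33. Rpsa, which also serves as a laminin receptor precursor at the cell surface, had 11.95 and -2.03, and Rps27a, made as a fusion with ubiquitin, had 12.55 and -1.06.

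**Figure D1:**
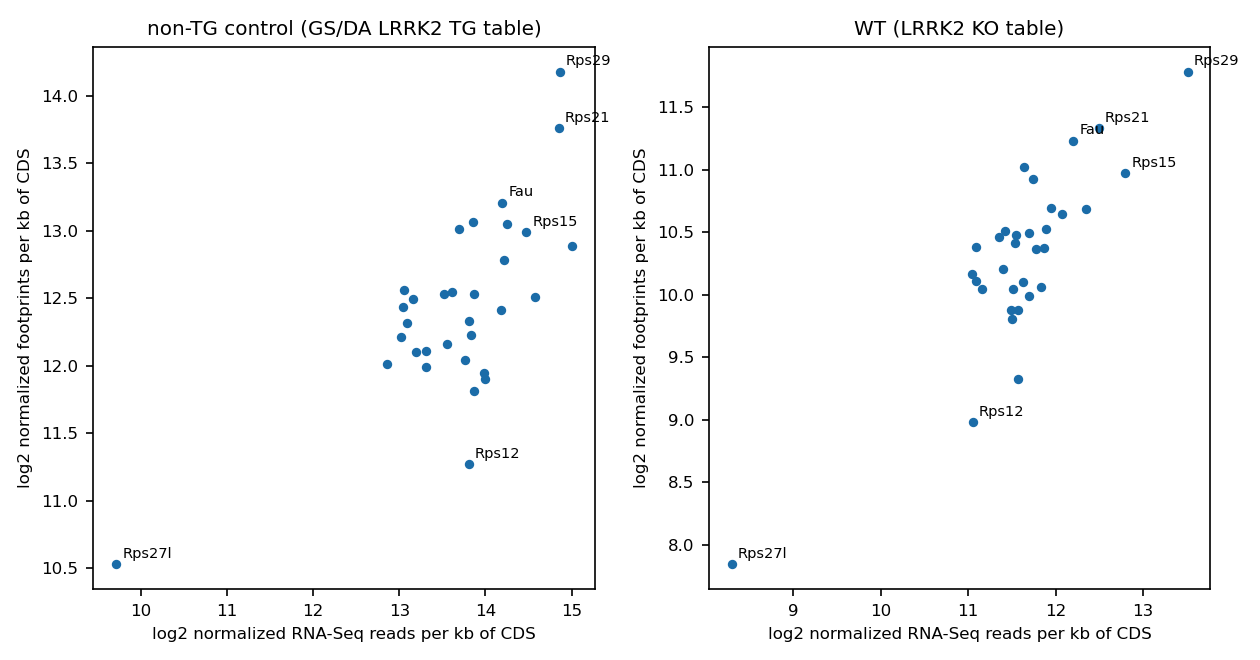
Log2 normalized footprints per kb of CDS (vertical axis) against log2 normalized RNA-Seq reads per kb (horizontal axis) for the 32 genes, from the group means of non-TG control in the GS/DA LRRK2 TG table (left) and of WT in the LRRK2 KO table (right). Each point is a gene; Rps29 is highest and Rps27l lowest in footprints in both panels, and Rps12 lies low for its RNA-Seq level.

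Libraries of the same group differed more in RNA-Seq than in footprinting in the transgenic tables. The SD among members of the log2 ratio between the libraries of a group was 0.983 for RNA-Seq of GS LRRK2 TG, 0.849 for non-TG control and 0.907 for GS/DA LRRK2 TG, against 0.260, 0.233 and 0.259 for footprinting. Rps19 RNA-Seq, for example, was 2479 and 5638 in the non-TG controls and 5832 and 2043 in GS/DA LRRK2 TG. Across the 32 genes this RNA-Seq ratio went with the share of G and C in the CDS (Spearman rho -0.57 in GS LRRK2 TG, -0.56 in non-TG control and 0.63 in GS/DA LRRK2 TG, beside -0.79, -0.78 and 0.80 over all transcripts). Genes are not independent replicates, and the sign depends only on which library is numbered 1.

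The spread between libraries was also measured in the LRRK2 KO table. The SD among members was 0.432 for WT RNA-Seq and 0.506 for LRRK2 KO RNA-Seq, and the rho with GC content was 0.03 and 0.05 (-0.04 and -0.27 over all transcripts). For footprinting the SD was 0.577 in WT and 0.515 in LRRK2 KO, with rho of 0.75 and 0.43 (0.54 and 0.23 over all). Since the difference between libraries recurred in both genotypes, a control library and a genotype library were assigned to each of 2 library batches for footprinting and for RNA-Seq. The rho of that difference over all transcripts between genotypes was 0.74 for footprinting and 0.98 in size for RNA-Seq of GS/DA LRRK2 TG, and 0.76 and 0.68 for LRRK2 KO. The labels name no batches, and which footprinting batch belongs with which RNA-Seq batch was not established. Each lysate was divided between the assays, but the recovered libraries were not matched to numbered replicates.

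**Figure D2:**
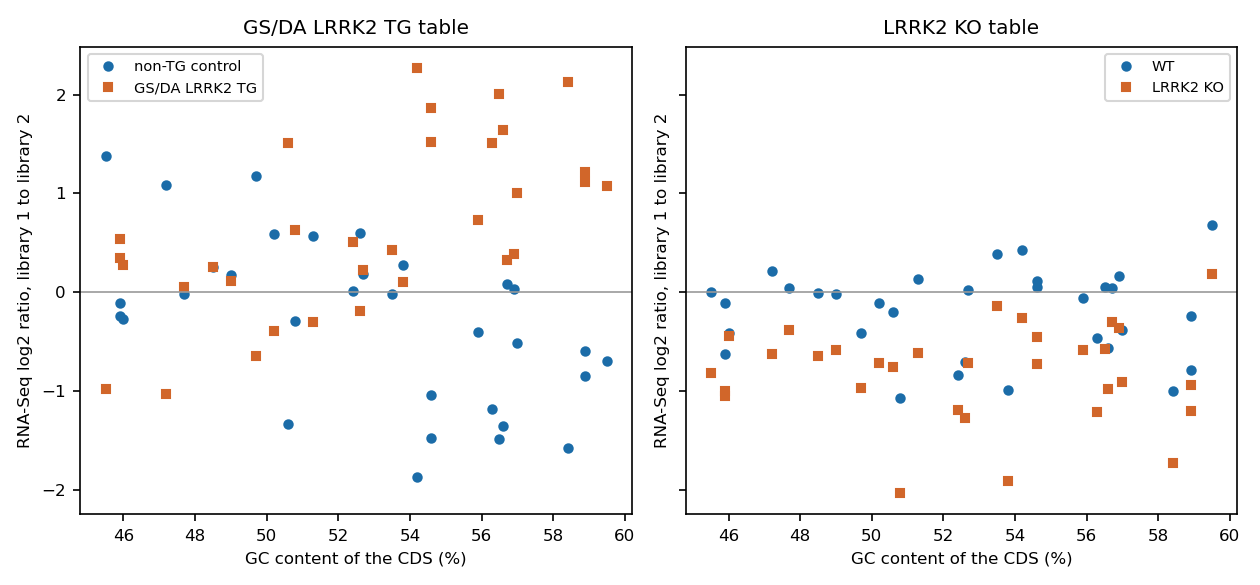
Log2 ratio of RNA-Seq reads between library 1 and library 2 of a group (vertical axis) against GC content of the CDS in percent (horizontal axis) for the 32 genes, with GS/DA LRRK2 TG and its controls on the left and LRRK2 KO and WT on the right. Each point is a gene in a group; the ratio follows GC content on the left, in opposite directions because the libraries of the groups are numbered in opposite order, while on the right nearly all LRRK2 KO points lie below 0.

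The comparison of LRRK2 KO with WT asks what the knockout of Lrrk2 does to these mRNAs. By the group means, small subunit proteins had more RNA-Seq reads in LRRK2 KO and as many footprints as in WT, and so a lower TE. The median RNA-Seq change of members was 0.28 against 0.01 over all transcripts, the median footprinting change 0.01 against 0.02 (-0.01 once the median of all transcripts was subtracted), and the median TE difference -0.30 against 0.02. The RNA-Seq excess was found in library batch 2 and not in library batch 1, where the median change of members was 0.53 and -0.06. No member passed the test by limma.

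In numbers, 31 of 33 members had an RNA-Seq mean above WT, as did 4905 of all 9561 transcripts. The change reached 0.25 in 22 members, while 12% of all transcripts did, and 1 member, the second Rps4x transcript, was at or below -0.25, as were 13.4% of all. For TE, 21 members were at or below -0.25 (15% of all transcripts) and 2 at or above 0.25 (18.1% of all). Footprinting reached 0.25 in 1 member, Rps27l (8.39% of all), and -0.25 in 0 (7.01% of all). Large subunit proteins, 43 transcripts, had medians of 0.22 for RNA-Seq, -0.01 for footprinting and -0.21 for TE.

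Among the LRRK2 substrates, Rps27, a zinc-binding protein of the body and platform, had 542.6 RNA-Seq reads in WT and 551.5 in LRRK2 KO in library batch 1, and 1135 and 2250 in library batch 2. The genotypes differed in the second batch only. Its footprints were 302.1 and 316.3 in batch 1 and 210.5 and 209.8 in batch 2. Its RNA-Seq change was 0.74, and its TE difference of -0.70 was the lowest of the members, below all but 0.450% of the transcripts of the table. From limma the RNA-Seq change was 0.50 with an SE of 0.72.

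Rps15 had 2833 RNA-Seq reads in WT and 2631 in LRRK2 KO in batch 1, and 3352 and 5052 in batch 2. Its footprints, 1004 and 964.1 in batch 1 and 747.4 and 795.9 in batch 2, were close between genotypes. The TE difference was -0.31.

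Both ubiquitin fusions followed this order as well. Rps27a had 1181 RNA-Seq reads in WT and 1215 in LRRK2 KO in batch 1, and 1272 and 2429 in batch 2, so the WT libraries lay close together and 1 LRRK2 KO library stood apart. Its footprints were 577 and 598.4 in batch 1 and 743.4 and 710.6 in batch 2, and its TE difference was -0.58. Fau, whose ubiquitin-like part is cut off eS30 after translation, had RNA-Seq of 1378 and 1413 in batch 1 and 2379 and 3256 in batch 2. Fau footprints were 1158 and 1100, then 760.8 and 835.1, and its TE difference was -0.30.

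Rps6 had 1969 RNA-Seq reads in WT and 2006 in LRRK2 KO in batch 1, and 2125 and 3302 in batch 2. Its footprints hardly varied over the 4 libraries, at 1082, 1079, 1099 and 1097, and its TE difference was -0.38. Rpsa, at the back of the platform, had RNA-Seq of 3281 and 3451 in batch 1 and 3172 and 4245 in batch 2, which put both LRRK2 KO libraries above both WT libraries. Rpsa footprints were 1010 and 942.8, then 887.3 and 935.8, with a TE difference of -0.27.

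Rps21, a small protein of the body and platform, had the second lowest TE difference, -0.61. Its RNA-Seq reads were 965 in WT and 927.4 in LRRK2 KO in batch 1, and 1908 and 3474 in batch 2, and its footprints were 832.5 and 815.5, then 450.3 and 474.2. At the other end stood low-count transcripts. Rps27l had 50.62 and 87.64 footprints in batch 1 and 65.28 and 51.76 in batch 2, so its TE difference of 0.42 rested on batch 1. The second Rps4x transcript had RNA-Seq of 174.9 and 150.2, then 194.9 and 136.3, with a TE difference of 0.39.

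Rps29 was the remaining member with a TE difference above 0, at 0.06. Its footprints were 755.4 in WT and 795.6 in LRRK2 KO in batch 1 and 429 and 539.9 in batch 2, and its RNA-Seq reads 2413 and 2252, then 1505 and 1977. Leaving out single libraries moved its TE difference between -0.32 (without WT RNA-Seq library 1) and 0.53 (without WT footprinting library 1). Head proteins had a median RNA-Seq change of 0.27 and a median TE difference of -0.32 over 14 transcripts. Body and platform proteins had 0.28 and -0.30 over 19, with an SD among all 33 members of 0.19 for RNA-Seq and 0.23 for TE, and whether the regions of the subunit differ was not tested.

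**Figure D3:**
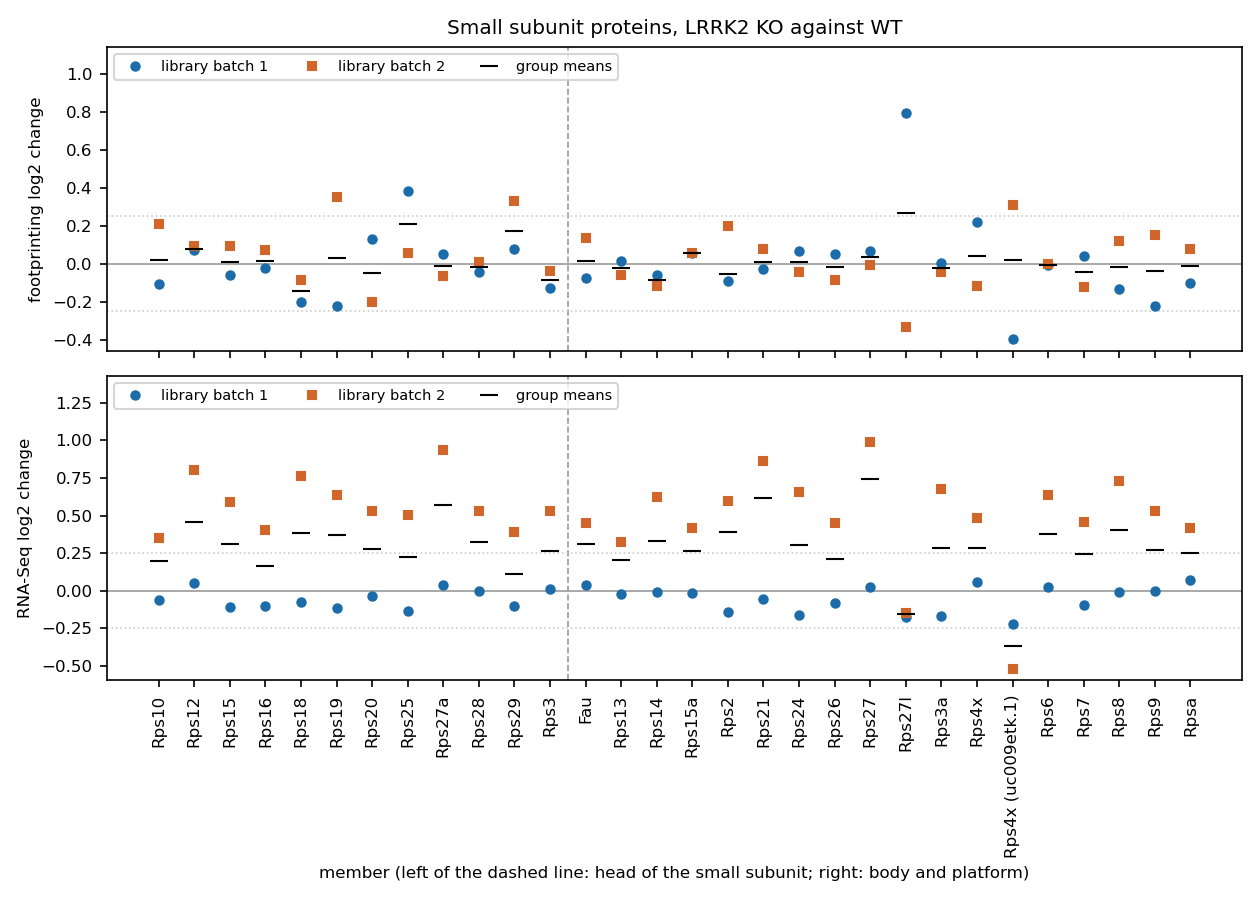
Log2 change from WT to LRRK2 KO of footprinting (top) and RNA-Seq (bottom) for 30 of the 33 member transcripts, with circles for library batch 1, squares for library batch 2, bars for the group means and dotted lines at 0.25 and -0.25. Footprinting scatters around 0 in both batches, while the RNA-Seq squares lie above 0.25 for all but 2 of them and the circles stay between -0.25 and 0.25.

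Within batch 1, 0 of 33 members reached an RNA-Seq change of 0.25 (7.23% of all transcripts) and 0 reached -0.25 (6.83% of all). Within batch 2, 31 members reached 0.25 (26.8% of all) and 1 reached -0.25 (26% of all). Members took 0.835% of the resolved reads of the batch 1 LRRK2 KO library (95% Wilson interval 0.829 to 0.840) and 1.34% of those of batch 2 (1.33 to 1.35). In WT the shares were 0.867% (0.861 to 0.874) and 0.897% (0.887 to 0.908). These intervals cover counting error only. Without the batch 2 LRRK2 KO library, the median RNA-Seq change of members was -0.14 and the median TE difference 0.17.

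The 4 ways of setting a footprinting batch beside an RNA-Seq batch gave median TE differences of 0.04 and 0.10 with RNA-Seq batch 1, and -0.56 and -0.50 with RNA-Seq batch 2. Both LRRK2 KO libraries lay above both WT libraries in RNA-Seq for 4 members, Rps12, Rps3, Rpsa and the main Rps4x transcript, as they did for 7.04% of all transcripts. Both lay below for the second Rps4x transcript (7.03% of all). For footprinting, Rps25 was higher in both (6.22% of all), at 710.7 and 723.2 against 545.9 and 695.5, and 2 members, Rps18 among them, were lower in both (6.41% of all).

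By limma with Benjamini-Hochberg adjustment over the 9528 transcripts resolved, 0 transcripts passed an adjusted p under 0.05 for footprinting, RNA-Seq or TE (0% of all, members included), and 16, 7 and 4 had an unadjusted p under 0.05, 0 of them members. With the library batch as a block, which leaves 1 residual degree of freedom (2 for TE), 15 transcripts passed for footprinting (0.157%), 11 for RNA-Seq (0.115%) and 0 for TE (0%), again with 0 members, while 304, 397 and 186 had an unadjusted p under 0.05. Of members, Rps27 and Rps27a had an unadjusted p under 0.05 for RNA-Seq in that fit, each with an adjusted p of 0.996 by limma, which was 1 without the block. The library batches were read from the values tested, so p in the fit with the block can be too small.

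Summed RNA-Seq of other cell types was set beside these values. Microglia markers, 10 of 12 symbols without Aif1 and Trem2, summed to 914.9 in WT and 916.4 in LRRK2 KO in batch 1 and to 1839 and 2417 in batch 2. Astrocyte markers, 11 of 11 with Aldoc the most abundant, summed to 10233 and 10239, then 13560 and 10941. Choroid plexus and blood markers, 5 of 11 with Hba-a2 the most abundant, summed to 6409 and 6183, then 9330 and 7171. Cortical neuron markers summed to 8522 and 7616, then 15449 and 12868, and oligodendrocyte markers, 12 of 14, to 45522 and 42931, then 24324 and 22439. Their part in the RNA-Seq values of the small subunit was not tested.

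The comparison of GS LRRK2 TG with non-TG control asks what the kinase-active mutant does. Small subunit footprints were close to control and RNA-Seq somewhat above it, so most members had a slightly lower TE. The median changes of members were -0.03 for footprinting, 0.11 for RNA-Seq and -0.15 for TE, against 0.00, -0.02 and 0.02 over all transcripts. Of 33 members, 29 had a TE difference below 0, as did 3877 of all 8576 transcripts. Control libraries were not recovered for this table, so there is no replicate check and no test for it.

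At 0.25, the RNA-Seq change was reached by 4 members (4.02% of all transcripts), the second Rps4x transcript with 0.47, Rps7 with 0.30, Rps21 with 0.26 and Rps20 with 0.25. None of the members was at or below -0.25 in RNA-Seq (15% of all). A TE difference at or below -0.25 was found in 4 members (5.24% of all), Rps12, Rps21, Rpsa and Rps20, and 0 members were at or above 0.25 in TE (17.0% of all). Footprinting reached 0.25 in 1 member, the second Rps4x transcript (3.32% of all), and -0.25 in 0 (3.21% of all).

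Rps12 had the lowest TE difference, -0.29. Its control footprinting mean was 741.4 and its transgenic libraries held 705.9 and 628.4, while RNA-Seq went from a mean of 4994 to 6228 and 4740. Rps21 had a control footprinting mean of 2535 and libraries at 2184 and 2832, which lie on both sides of it, and RNA-Seq of 6745 in control and 8168 and 7984 in the transgenic libraries. Its TE difference was -0.28. Rpsa, with -0.27, had footprints of 2769 in control and 2597 and 2394 in the transgenic libraries and RNA-Seq of 12993, then 12480 and 15733.

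The highest TE differences were small. Rps29 had 0.10, from footprints of 2288 in control and 2174 and 2588 in GS LRRK2 TG and RNA-Seq of 5060, then 3320 and 6489, and it was -0.30 without RNA-Seq library 1 and -0.03 without footprinting library 2. The main Rps4x transcript, encoded on the X chromosome, had 0.08, from footprints of 2653, then 2690 and 2585, and RNA-Seq of 6899, then 6315 and 6646. This value was -0.02 once GC content and length of the CDS were taken out. Rps2 had 0.06, with RNA-Seq of 13266 in control and 5129 and 18605 in the transgenic libraries, and a TE difference of -0.59 without RNA-Seq library 1.

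Of the LRRK2 substrates, Rps15 had a TE difference of -0.24 and Rps27 of -0.19. Rps15 footprints were 2857 in control and 2718 and 2529 in GS LRRK2 TG, both below the control mean, and its RNA-Seq 10299, then 6885 and 15506. Rps27 footprints were 1078, then 941.2 and 1172, and its RNA-Seq 5643, then 5231 and 7370. For Rps15 as for Rps27, RNA-Seq of the transgenic libraries lay on both sides of the control mean, and without GS LRRK2 TG RNA-Seq library 2 the TE differences were 0.46 and 0.08.

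Rps6, the S6 kinase target, had footprints of 3384 in control and 3816 and 2992 in GS LRRK2 TG, RNA-Seq of 9057, then 12826 and 7546, and a TE difference of -0.16. Rps27a had footprints of 2144, then 1892 and 2176, RNA-Seq of 5466, then 4557 and 7283, and a TE difference of -0.19. Fau had 2988, then 3112 and 2627 footprints, RNA-Seq of 7282, then 5121 and 10262, and a TE difference of -0.14. Rps27a had 0.19 and Fau 0.45 without GS LRRK2 TG RNA-Seq library 2, and Rps6 had 0.27 without library 1. The ubiquitin fusions thus shared the RNA-Seq pattern of Rps15 and Rps27, with library 1 below and library 2 above the control mean.

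The direction in GS LRRK2 TG depended on the RNA-Seq library. Without GS LRRK2 TG RNA-Seq library 1, the median RNA-Seq change of members was 0.37 and the median TE difference -0.40, and without library 2 they were -0.15 and 0.19. The footprinting median was -0.07 without either footprinting library. Members took 0.583% and 0.579% of the resolved footprints (95% Wilson intervals 0.578 to 0.588 and 0.574 to 0.585). Of the resolved RNA-Seq reads they took 1.80% and 2.03% (1.79 to 1.81 and 2.02 to 2.04). Head and body and platform proteins had median TE differences of -0.16 and -0.15, and large subunit proteins -0.12.

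The summed markers of other cells in GS LRRK2 TG were compared with control by their means. For RNA-Seq the log2 changes were 0.12 for microglia markers, 0.12 for oligodendrocyte markers, 0.06 for astrocyte markers, -0.40 for cortical neuron markers, -0.08 for striatal neuron markers and 0.04 for choroid plexus and blood markers. In the single RNA-Seq libraries, microglia markers summed to 6851 and 7124 beside a control sum of 6425, and oligodendrocyte markers to 21453 and 53693 beside 34631. Striatal neuron markers, 15 resolved, summed to 68365 and 125605, cortical neuron markers to 4113 and 11971 beside 10625, choroid plexus and blood markers to 12011 and 49729 beside 30092, and astrocyte markers to 16753 and 25100 beside 20125. Apart from microglia markers, the means of these lists therefore span libraries that lie far apart. Their part in the values of the small subunit was not tested.

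The comparison of GS/DA LRRK2 TG with non-TG control sets a transgene without kinase activity, carried by a separate line, against control. The Lrrk2 footprinting change was 2.17 in this line and 1.04 in GS LRRK2 TG, so the lines differ in more than kinase activity. Small subunit footprints were somewhat fewer than in control, for 32 of 33 members by the group means (4501 of all 8576 transcripts), and this held in both library batches for most of them. The median footprinting change was -0.13 against -0.01 over all transcripts, and -0.20 in batch 1 and -0.06 in batch 2. With each footprinting library left out, the median of members ran from -0.18 to -0.05. RNA-Seq was below control in batch 1 and above it in batch 2. No member passed the test by limma, and the large subunit proteins had a similar footprinting median of -0.16.

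The medians of members were -0.05 for RNA-Seq and -0.13 for TE, against 0.06 and -0.06 over all transcripts, and the RNA-Seq median was 0.02 once GC content and length of the CDS were taken out. Footprinting was at or below -0.25 in 1 member, Rps19 (3.35% of all transcripts), and at or above 0.25 in 0 (3.67% of all). RNA-Seq reached 0.25 in 1 member, the second Rps4x transcript (14.2% of all), and -0.25 in 0 (2.59% of all). TE was at or below -0.25 in 5 members (13.2% of all), among them Rps29, Rps27l, Rps10 and Rps19, and at or above 0.25 in 0 (1.48% of all).

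Rps19, a head protein needed to mature 18S rRNA and mutated in Diamond-Blackfan anaemia, had 2005 footprints in control and 1564 in GS/DA LRRK2 TG in batch 1, and 1819 and 1549 in batch 2. Both transgenic libraries lay below both controls. Its RNA-Seq reads were 2479 and 2043 in batch 1 and 5638 and 5832 in batch 2. The footprinting change by limma was -0.29 with an SE of 0.12 and an adjusted p of 1. With the library batch as a block the SE was 0.07 and the adjusted p 0.194, the lowest of any member in these fits. That block was read from the values tested, so this SE and p can be too small.

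Rps29 had the lowest TE difference, -0.30. Footprints of Rps29 were 3562 in control and 2863 in GS/DA LRRK2 TG in batch 1 and 2664 and 2396 in batch 2, and its RNA-Seq reads 3827 and 3344, then 6186 and 7029. Rps27l, with -0.27, had 468.2 and 430.5 footprints in batch 1 and 275.6 and 256.9 in batch 2, and RNA-Seq reads of 191.5 and 212.9, then 230.7 and 258.6. It was the member whose batches differed least in both changes.

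The highest TE differences, 0.06 for Rpsa, 0.06 for Rps7 and 0.05 for Rps6, came from proteins of the body and platform. Rpsa footprints were 3397 and 3115 in batch 1 and 3597 and 3452 in batch 2, and RNA-Seq reads 14668 and 11444, then 13886 and 14334. Rps7, needed early in the processing of the 18S rRNA, had footprints of 3063 and 2658, then 3278 and 3007, and RNA-Seq of 14929 and 11287, then 6625 and 7237. Rps6 footprints were 4124 and 3787, then 4716 and 4295, and RNA-Seq reads 13357 and 11138, then 8880 and 8466. For these 3 members footprints were lower in the transgenic library of each batch.

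Among the LRRK2 substrates, footprints were lower in batch 1 for Rps15 and in both batches for Rps27. Rps15 had 3642 and 3213, then 3436 and 3553 footprints, with RNA-Seq of 7064 and 6239, then 12715 and 14534. Rps27 had 1728 and 1380, then 1207 and 1090 footprints, with RNA-Seq of 5525 and 4553, then 6734 and 7060. Their TE differences were -0.14 and -0.17, neither of them beyond the SE by limma of 0.70 and 0.51.

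Of the ubiquitin fusions, Rps27a had 2907 and 2382 footprints in batch 1 and 2697 and 2589 in batch 2, with both transgenic libraries below both controls. Its RNA-Seq reads were 5360 and 4396, then 6311 and 6386, and its TE difference -0.06. Fau had 3576 and 3070, then 3976 and 4019 footprints, so its batches differed, and RNA-Seq of 5938 and 4566, then 8984 and 9862, with a TE difference of -0.04.

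**Figure D4:**
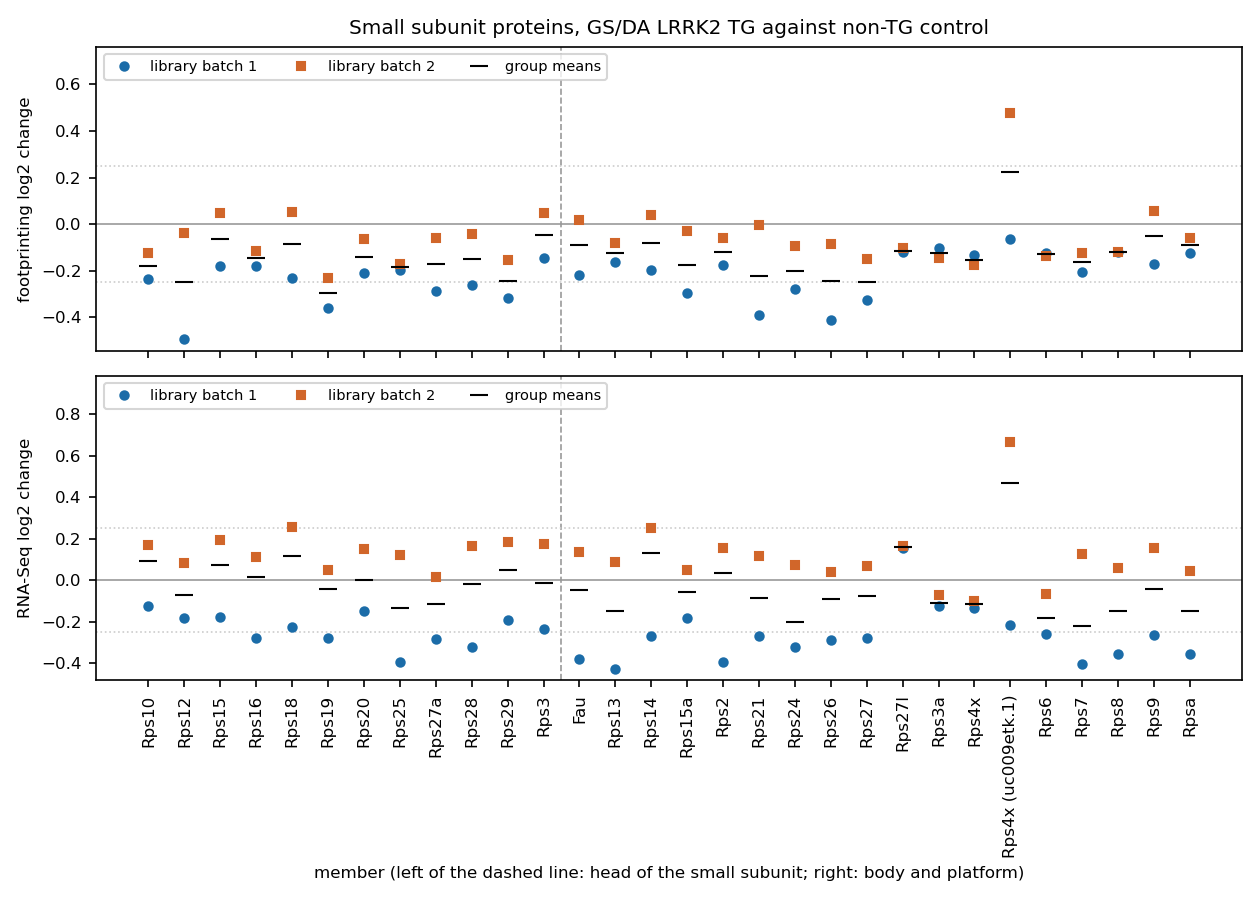
Log2 change from non-TG control to GS/DA LRRK2 TG of footprinting (top) and RNA-Seq (bottom) for 30 of the 33 member transcripts, with circles for library batch 1, squares for library batch 2, bars for the group means and dotted lines at 0.25 and -0.25. Footprinting circles all lie below 0 and most squares between them and 0, while in RNA-Seq the circles lie below 0 and the squares above it for most members.

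In footprinting, all 33 members were below 0 in batch 1, 10 of them at or below -0.25 (5.91% of all transcripts) and 0 at or above 0.25 (5.78% of all). In batch 2, 24 were below 0, with 0 at or below -0.25 (5.44% of all) and 1 at or above 0.25 (5.50% of all). Both transgenic libraries lay below both controls in 11 members (12.2% of all): Rps2, Rps3a, Rps7, Rps10, Rps12, Rps13, Rps19, Rps26, Rps27a, Rps28 and the main Rps4x transcript. They lay above in 0 (12% of all). Members took 0.766% and 0.703% of the resolved control footprints (95% Wilson intervals 0.762 to 0.771 and 0.698 to 0.709). Of the resolved transgenic footprints they took 0.60% and 0.614% (0.596 to 0.603 and 0.609 to 0.620). The transcripts resolved were 8460 in control and 8523 in GS/DA LRRK2 TG, so the shares of the groups have unlike denominators.

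In RNA-Seq, the median change was -0.26 in batch 1, with 19 members at or below -0.25 (11.4% of all transcripts), and 0.12 in batch 2, with 2 at or above 0.25 (6.90% of all). Both transgenic libraries lay below both controls for the main Rps4x transcript (1.60% of all) and above for 0 members (1.77% of all). The 4 combinations of batches gave median TE differences of 0.03 and 0.23 with RNA-Seq batch 1 and -0.35 and -0.17 with RNA-Seq batch 2. Leaving out the GS/DA LRRK2 TG RNA-Seq library of batch 1 gave medians of 0.18 for RNA-Seq and -0.30 for TE, and leaving out that of batch 2 gave -0.41 and 0.23. The TE median was 0.01 without the control RNA-Seq library of batch 1, and the RNA-Seq median was 0.01 without that of batch 2. Head proteins had a median TE difference of -0.15 and body and platform proteins of -0.04, with an SD of 0.11 among all 33 members.

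By limma with Benjamini-Hochberg adjustment over 8415 transcripts, 0 passed an adjusted p under 0.05 for footprinting, RNA-Seq or TE (0% of all, members included), and 157, 0 and 0 had an unadjusted p under 0.05, with Rps19 as the only member and 0 members with a pseudocount of 1. With the library batch as a block, again on 1 residual degree of freedom (2 for TE), 23 transcripts passed for footprinting (0.273%) and 0 for RNA-Seq and TE (0%), with 0 members among them. In that fit 1187, 134 and 34 transcripts had an unadjusted p under 0.05, and 6 members did for footprinting: Rps10, Rps19, Rps25, Rps26, Rps27 and Rps29. The library batches were read from the values tested, so p in that fit can be too small.

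Footprints of striatal neuron markers were also below control in each batch of GS/DA LRRK2 TG. Over the 13 of them resolved in every library, they summed to 94389 in control and 76516 in GS/DA LRRK2 TG in batch 1 and to 105965 and 97276 in batch 2. Cortical neuron markers, 5 resolved, summed to 4261 and 7576, then 4037 and 5852, while the group means of all 6 listed summed to 23367 in control and 23208 in GS/DA LRRK2 TG (log2 change -0.01). Choroid plexus and blood markers to 26689 and 26138, then 36487 and 16096. Microglia markers, which lacked Aif1 and P2ry12 here, summed to 7875 and 8225, then 5832 and 6068, and astrocyte markers, 10 resolved, to 23374 and 23770, then 28686 and 29954. Oligodendrocyte markers, 10 resolved, summed to 43338 and 43318, then 54709 and 58370. Their part in the footprints of the small subunit was not tested.

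Both transgenic comparisons share the non-TG control group by the labels. Which control libraries enter each table was not established in full, so the values of both comparisons are set side by side without further comparison. Median footprinting, RNA-Seq and TE changes of members were -0.03, 0.11 and -0.15 in GS LRRK2 TG and -0.13, -0.05 and -0.13 in GS/DA LRRK2 TG. Whether the genotypes differ from each other at these members was not tested.

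TOP mRNAs start at a C that opens a run of pyrimidines, and the starts annotated for members were examined for such a run since most RNA-Seq means of the members lay on the same side of WT in LRRK2 KO. RefSeq (GRCm38.p6) gave a window around the start for 24 of 32 genes. A run of a C followed by at least 4 further C or T bases from the annotated start was present in 7 genes (29.2%), against 8 of 42 large subunit genes (19.0%) and 813 of 27025 genes overall (3.01%). On the other strand the shares were 1 of 24 members and 3.05% of all. An annotated start can lie some bases off the start in use, so a window without the run says only that these letters are not at that position. The longest runs, in Fau and Rps10, and those of Rps6 and Rps27 are shown as 30 bases centred on the start, with the run in capitals: Fau at chr19:6057932-6057961 on the plus strand, Rps10 at chr17:27635230-27635259, Rps6 at chr4:86857353-86857382 and Rps27 at chr3:90213634-90213663, these 3 on the minus strand.
Fau: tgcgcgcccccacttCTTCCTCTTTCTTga
Rps10: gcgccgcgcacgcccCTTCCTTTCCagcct
Rps6: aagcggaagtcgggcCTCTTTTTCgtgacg
Rps27: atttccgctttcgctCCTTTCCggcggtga

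The 7 members with the run, which also include Rps15a, Rps18 and Rps21, had a median RNA-Seq change of 0.38 and a median TE difference of -0.38 in LRRK2 KO, against 0.27 and -0.30 for the 18 transcripts of genes with a window and no run, where the second Rps4x transcript was counted with the window of its symbol. In GS/DA LRRK2 TG the median footprinting change was -0.17 with the run and -0.13 without, and in GS LRRK2 TG the median TE difference was -0.15 and -0.17. Without the second Rps4x transcript, an alternative chosen after seeing the data, the 17 transcripts with no run had 0.27 and -0.30 in LRRK2 KO, -0.15 for GS/DA LRRK2 TG footprinting and -0.18 for GS LRRK2 TG TE. Whether members with and without the run differ was not tested.

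Genes that act on the small subunit gave a background for the members. Of 57 symbols of 40S assembly factors, 48 were listed in the transgenic tables and 50 in the LRRK2 KO table, and their median TE difference was 0.09 in GS LRRK2 TG, -0.12 in GS/DA LRRK2 TG and 0.05 in LRRK2 KO. The highest and lowest were Npm1 (0.79) and Rrp9 (-0.42) in the first, Tsr1 (0.17) and Npm1 (-0.80) in the second, and Aatf (0.43) and Rrp9 (-0.47) in the third. Their median RNA-Seq change in LRRK2 KO was -0.04, where that of the members was 0.28.

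Kinases and factors that bind the 40S subunit, 24 of 30 symbols in the transgenic tables and 25 in the LRRK2 KO table, had median TE differences of -0.06, -0.09 and -0.07. Abce1, which splits the subunits after termination, was highest in GS LRRK2 TG (0.65) and LRRK2 KO (0.39) and lowest in GS/DA LRRK2 TG (-0.50). The other extremes were the S6 kinase family members Rps6kc1 (-0.31) in GS LRRK2 TG, Rps6ka5 (0.33) in GS/DA LRRK2 TG and Rps6ka4 (-0.25) in LRRK2 KO.

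Other TOP mRNAs, which share the 5′ motif with the members but encode elongation factors and RNA-binding proteins, were listed for 23 of 25 symbols. Their median TE difference was 0.10 in GS LRRK2 TG, -0.10 in GS/DA LRRK2 TG and -0.05 in LRRK2 KO, and their median RNA-Seq change in LRRK2 KO was 0.10. Npm1 was highest in GS LRRK2 TG (0.79) and LRRK2 KO (0.26) and lowest in GS/DA LRRK2 TG (-0.80), with Eef1b2 (-0.33), Eef1g (-0.35) and Csda (0.21) at the other ends.

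Proteins of the mitochondrial small subunit, 26 of 33 symbols, had median TE differences of -0.08, 0.03 and 0.03 in the same order. The highest and lowest were Mrps36 (0.29) and Aurkaip1 (-0.27), Mrps35 (0.26) and Mrps28 (-0.21), and Mrps6 (0.59) and Mrps26 (-0.33). Among large subunit proteins the corresponding pairs were Rpl36al (0.27) and Rpl23a (-0.33), Rplp2 (0.15) and Rpl28 (-0.18), and Rpl36al (0.10) and Rplp1 (-0.57).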

How the data were processed

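Footprinting and RNA-Seq libraries were sequenced by the authors, base-called with CASAVA 1.8, mapped to mm9 with TopHat2 2.0.11 and Bowtie2 2.2.2, counted in the CDS, rid of transcripts with few reads and normalized with DESeq 1.20. The deposited values used are a signal, the mean of normalized reads per group and assay (12 columns in 3 tables), and a value of another kind (other), the 5′UTR folding energy in kcal/mol. The authors' own TE comparisons and z scores were not used.

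Log2 changes used a pseudocount of 0, and members were counted at 0.25 in either direction. Reads of single libraries were recovered as the only pair of whole numbers that fits a mean of 2 libraries. They were tested with limma 3.58.1 (R 4.3.3) on log2 normalized reads with a pseudocount of 10 over all transcripts resolved, with 2 residual degrees of freedom (4 for TE) and Benjamini-Hochberg adjustment. The library batch block left 1 (2 for TE), and leaving out a library left 1 (3 for TE). Changes within library batches used the same pseudocount for medians and counts. Python 3.11.15, numpy 2.4.6, pandas 2.3.3, scipy 1.17.1, numba 0.67.0 and matplotlib 3.10.9 were used, and the methods were tested on simulated data. CDS length, GC content and windows came from the annotated NCBIM37 genome, matched for 97.1% of transcripts of the transgenic tables and 97.0% of the LRRK2 KO table.

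Named members are the LRRK2 substrates, Rps6, the ubiquitin fusions, Rpsa and the 3 highest and 3 lowest TE differences of each table, and of each comparison list the highest and lowest. Some members and markers that this rule or a list would name are left out of the text and of the figures that name each member. Other members were named after their values were seen. Members and lists were chosen with earlier results of these data known. Alternatives were other pseudocounts, a minimum of 500 for group means, subtracting the median of all transcripts, a fit on GC content and CDS length, members with at least 90% unique windows, 1 transcript per symbol, thresholds of 0.1 and 0.5, the library batch block, and each library left out. The ventral midbrain libraries were left out because no table holds them.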

Additional observations from a re-analysis of the deposited data

How the results depend on the processing

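No paired analysis was possible because the columns of means carry no replicate numbers, so libraries were paired only by batches read from the values (the library batch block). Since those are also the values tested, p in the fits with the block can be too small and their calls too many. The LRRK2 KO medians turned on RNA-Seq. Leaving out each library gave -0.14 to 0.65 for RNA-Seq and -0.65 to 0.17 for TE, both changing sign without LRRK2 KO RNA-Seq library 2. For footprinting the range was -0.105 to 0.090, so the sign of that small median was not fixed either. Within library batch 1 the RNA-Seq median was -0.059, and with the opposite matching it was -0.14 in batch 2. TE medians were 0.04 (footprinting batch 1) and 0.10 (batch 2) with RNA-Seq batch 1, and under the opposite matching 0.10 and 0.30 with RNA-Seq batch 2. In GS/DA LRRK2 TG the opposite matching of batch 2 in both assays gave a TE median of 0.39. That of batch 1 in both gave -0.56. Footprinting batch 1 with RNA-Seq batch 2 gave 0.30, and footprinting batch 2 with RNA-Seq batch 1 gave -0.28. RNA-Seq medians under this matching were 0.25 in batch 1 and -0.42 in batch 2, opposite in sign to the matching used. The GS LRRK2 TG footprinting median was -0.09 with at least 90% unique windows, and -0.07 without either transgenic library (-0.072 to -0.068). The library batch block raised limma calls from 0 to 23 for GS/DA LRRK2 TG footprinting, 15 for LRRK2 KO footprinting and 11 for LRRK2 KO RNA-Seq, and leaving out a library gave 2 to 31 for the first. With each library left out, TE differences in GS/DA LRRK2 TG ran from -0.69 to 0.16 for Rps27l and -0.73 to 0.34 for Rps29. Other members ran from -0.62 to 0.60 (Rps15), -0.45 to 0.18 (Rps27), -0.27 to 0.32 (Rps6), -0.30 to 0.24 (Rps27a), -0.49 to 0.62 (Fau), -0.10 to 0.23 (Rpsa) and -0.65 to 0.53 (Rps7) there. In GS LRRK2 TG they ran from -0.71 to 0.46 (Rps15), -0.41 to 0.08 (Rps27), -0.49 to 0.27 (Rps6), -0.49 to 0.19 (Rps27a), -0.55 to 0.45 (Fau), -0.30 to 0.67 (Rps29), -0.59 to 1.27 (Rps2), -0.47 to -0.08 (Rps12), -0.475 to -0.10 (Rps21), -0.43 to -0.09 (Rpsa) and 0.045 to 0.12 (Rps4x uc009tyl.1). In LRRK2 KO they ran from -0.78 to 0.42 for Fau, -0.70 to 0.24 for Rps15, -1.27 to 0.64 for Rps21, -1.39 to 0.64 for Rps27, -0.999 to 0.00 for Rps27a, -0.006 to 0.75 for Rps27l, -0.13 to 0.77 for Rps4x uc009etk.1, -0.69 to 0.025 for Rps6, -0.32 to 0.53 for Rps29 and -0.41 to -0.11 for Rpsa. A lone library was assumed to vary like the other groups, and the causes were not tested. Of the alternatives for medians and limma calls, 157 stayed within the spread between libraries or kept the count of calls, 11 moved and 8 reversed. A median under 0.25 in size was not counted as reversed when its sign changed, which holds for every median of both transgenic comparisons. For member counts and the members named, 295 stayed near the count or within the spread between libraries, 31 moved and 14 reversed. There too, a TE difference under 0.25 in size was not counted as reversed when its sign changed. limma could not be fitted for GS LRRK2 TG.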

Other observations

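The second Rps4x transcript, uc009etk.1, differed from the main one in level and, by the group means, in direction. From control to genotype, its RNA-Seq means went from 396.4 to 549.6 (GS LRRK2 TG), from 301.4 to 417.1 (GS/DA LRRK2 TG) and from 184.9 to 143.3 (LRRK2 KO). The main transcript, uc009tyl.1, went from 6899 to 6480, from 8000 to 7376 and from 1806 to 2197 in the same order. The rise of uc009etk.1 in GS/DA LRRK2 TG was in library batch 2 only (434.8 to 689.3), while batch 1 went from 168.1 to 144.8. Its GS LRRK2 TG libraries held 137.3 and 962, on both sides of the control mean. In LRRK2 KO it was lower than WT in both batches. The tables give no position for either, so the locus of uc009etk.1 was not identified.

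Across the 32 genes, the footprinting change in GS/DA LRRK2 TG had a Spearman rho of 0.49 with CDS length, against 0.18 over all genes matched, and the RNA-Seq change a rho of 0.46 with the GC content of the CDS, against -0.05. In GS LRRK2 TG the footprinting change had a rho of -0.55 with GC content, against -0.38. In LRRK2 KO the RNA-Seq change had a rho of 0.06 with CDS length and -0.02 with GC content. These are descriptions across genes, which are not independent replicates.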
